A study of Mus musculus with 15 samples.

Results

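The genes described here are those whose symbol starts with Nduf, most of which encode subunits or assembly factors of respiratory complex I. They were chosen by symbol from the platform annotation, as genes with at least 1 probe set paired with that gene alone, and a gene's value is the mean of its probe sets. This gave 39 of the 12393 genes measured, through 74 probe sets, of which 19 genes had 1 and 20 had several, up to 6. Of the 39, 33 encode subunits of complex I, 5 encode assembly factors (Ndufaf1, Ndufaf3, Ndufaf4, Ndufaf5 and Ndufaf7), and Ndufa4 encodes a protein first counted with complex I and now placed in complex IV. Another 8 probe sets that the annotation pairs with several genes were left out, and Ndufs6, Ndufa11, Ndufb4, Ndufaf2, Ndufaf6, Ndufaf8 and Ndufa4l2 are not analysed here.

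Complex I, the NADH:ubiquinone oxidoreductase of the inner mitochondrial membrane, takes electrons from NADH, passes them along a chain of iron-sulphur clusters to ubiquinone, and pumps protons that drive ATP synthesis. Its matrix arm carries the core subunits that bind NADH (the N module) and ubiquinone (the Q module). Its membrane arm is built on mitochondrially encoded subunits, and many accessory subunits surround both arms. Heart muscle is rich in mitochondria and depends on this chain for most of its ATP.

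Whole hearts were taken 48 h after surgery and hybridised to 15 oligonucleotide arrays, 3 in each of 5 groups. Wild-type mice were labelled C57/BL6. Their septic hearts, divided by the labels into Max Dep and Min Dep groups, followed caecal ligation and perforation (CLP): the gut pouch is tied off and pierced, and its bacteria spill into the abdomen. The remaining wild-type group had sham surgery. The labels do not spell out Max Dep and Min Dep. The knockout mice, labelled iNOS KO, were congenic for the Nos2tm1Lau allele (strain B6.129P2-Nos2tm1Lau/J) and had CLP or sham surgery. Nos2 encodes the inducible nitric oxide synthase, and the labels name no cell type restriction of that allele. Every group received isoflurane, subcutaneous buprenorphine and saline, and before removal of the heart ketamine, xylazine and a carotid catheter. Ages are not given, and neither is whether an array held RNA of more than 1 heart. Nothing in the labels describes replicates beyond a code for each array, so p-values measure the spread between these arrays.

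The 9 wild-type and 6 knockout arrays lie in separate tables and belong to different array models, so genotype, table and array model cannot be told apart, and levels were never compared between genotypes. Wild-type values are standardised per probe set, with mean 0 and SD 1 over the 9 arrays once a linear step per array is undone. A difference on this scale says nothing of how far transcript abundance moved, and it cannot be read as a fold. Knockout values behave as log differences centred per probe set, with the base not given. The knockout CLP replicate 1 stands apart: its value lay between those of the other CLP arrays in 76% of probe sets, against 32.8% to 34.4% for the sham arrays, so it was left out of the test. Across 22626 probe sets its correlation with the mean of the other CLP arrays was 0.847, against -0.143 to -0.0454 for each sham array and the mean of the other sham arrays. Whether it is a combination of the other CLP arrays is not given, so a p with it kept may rest on no further sample. CLP replicate 1 and sham replicate 1 held no value of exactly 0, against 2992 to 3122 such values in each other knockout array. Sham replicate 1 was kept in the test. Because neither table holds levels, whether heart markers are present could not be checked. Differences between CLP and sham in 12 cardiomyocyte markers had a median of -0.16 standardised units in wild type (4 positive and 8 negative). In whole-heart RNA, fewer cells of a type and less RNA per cell cannot be told apart.

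Promoter sequences are shown for 4 members on which the results below turn. Ndufs3 and Ndufv1 are core subunits whose differences had opposite signs in septic wild-type hearts, Ndufb10 had the largest difference of Max Dep from Min Dep hearts, and Ndufaf4 had the largest in knockout hearts. Each is the 250 bases before the annotated start in RefSeq (build GRCm38.p6), read 5′ to 3′ on the gene's strand, in lower case, with capitals marking a searched motif. The windows are chr2:90904722-90904971 (minus strand) for Ndufs3, chr19:4012756-4013005 (minus) for Ndufv1, chr17:24724424-24724673 (minus) for Ndufb10 and chr4:24897833-24898082 (plus) for Ndufaf4.
Ndufs3: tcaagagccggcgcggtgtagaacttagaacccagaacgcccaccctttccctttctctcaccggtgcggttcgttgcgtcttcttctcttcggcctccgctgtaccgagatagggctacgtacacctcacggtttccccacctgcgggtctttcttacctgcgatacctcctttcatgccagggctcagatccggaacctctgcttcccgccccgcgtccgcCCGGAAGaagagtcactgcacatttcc
Ndufv1: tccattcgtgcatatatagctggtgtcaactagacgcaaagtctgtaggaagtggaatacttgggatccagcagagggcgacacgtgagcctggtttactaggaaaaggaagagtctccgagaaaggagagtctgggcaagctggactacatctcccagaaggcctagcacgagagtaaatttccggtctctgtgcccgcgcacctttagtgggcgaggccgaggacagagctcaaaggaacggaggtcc
Ndufb10: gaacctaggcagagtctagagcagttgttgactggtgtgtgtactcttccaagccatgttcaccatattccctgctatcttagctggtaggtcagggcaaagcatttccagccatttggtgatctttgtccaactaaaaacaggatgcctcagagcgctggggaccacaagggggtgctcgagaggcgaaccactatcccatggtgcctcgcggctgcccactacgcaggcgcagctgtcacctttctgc
Ndufaf4: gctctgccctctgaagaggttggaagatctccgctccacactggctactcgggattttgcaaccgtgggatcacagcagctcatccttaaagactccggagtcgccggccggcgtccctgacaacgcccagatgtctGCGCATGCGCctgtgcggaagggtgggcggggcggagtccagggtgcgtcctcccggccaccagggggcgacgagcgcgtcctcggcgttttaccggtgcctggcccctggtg

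The motifs were searched on both strands as exact letters, and none contains another. They were GCGCA, any base and GCGC for NRF1 and CCGGAAG for GABPA, regulators of nuclear genes for mitochondrial proteins, AAGGTCA for oestrogen-related receptors, and AAGATGGC for YY1. The Ndufs3 window held the GABPA motif 27 to 21 bases before the start, and the Ndufaf4 window held the NRF1 motif 113 to 104 bases before it. The Ndufv1 and Ndufb10 windows held none of the 4. Of 36 members with a window in the RefSeq table, 4 held the NRF1 motif (Ndufa5, Ndufa8, Ndufaf4 and Ndufs5), which is 11.1%, against 3.74% of all 32851 windows. The GABPA motif was in 4 (Ndufaf1, Ndufb6, Ndufb7 and Ndufs3), also 11.1%, against 6.91% of all windows. The oestrogen-related receptor motif was in 2 (Ndufb2 and Ndufs5), or 5.56%, against 4.08%, and the YY1 motif was in 0, against 1.56%. These matches describe letters in a window, and nothing about binding was measured.

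The first comparison asked how the complex I genes of septic wild-type hearts, Max Dep and Min Dep together, stood against sham hearts. They were split in sign. Of the 39 genes, 25 had a negative and 14 a positive difference, with a median of -0.79 standardised units, against 0.02 over all 12393 genes. None passed an adjusted p of 0.05 (limma, unmoderated statistics, Benjamini-Hochberg over all genes), where 0.718% of all genes passed. At an unadjusted p under 0.05 there were 5 higher and 12 lower members, together 17 of 39, against 18.6% of all genes. All 6 septic arrays lay above all 3 sham arrays for 3 members, against 5.89% of all genes, and below them for 7 members, against 6.11%. The heat map of values by array shows this split in the core, accessory and assembly genes.

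**Figure D1:**
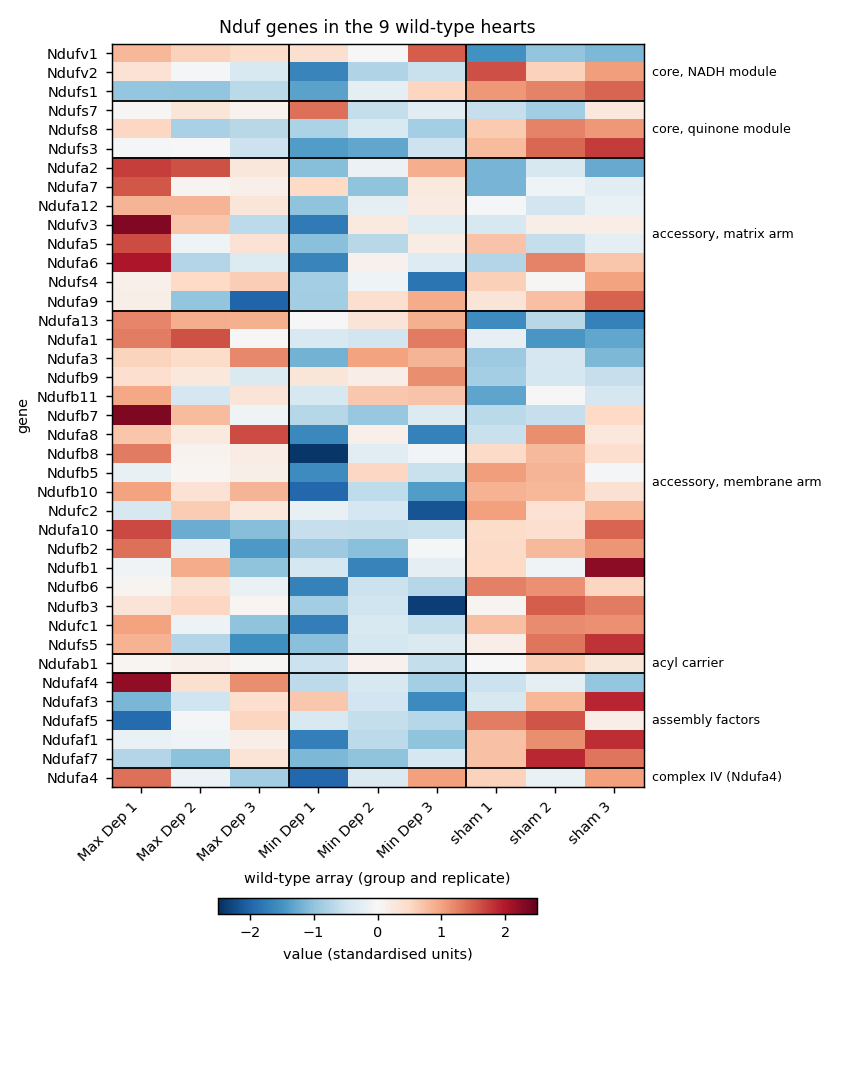
Values of the 39 Nduf genes in the 9 wild-type arrays, as a heat map in standardised units (red above 0, blue below 0). Rows are genes grouped by module and columns are arrays, Max Dep, Min Dep and sham, with 3 replicates each. The sham columns are mostly red and the Min Dep columns mostly blue. Ndufv1, Ndufa13, Ndufa1 and Ndufa2 are below 0 in sham, above 0 in Max Dep and mixed in Min Dep columns.

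The core subunits of the N module differed in sign. Ndufv1, which binds NADH and the flavin that accepts its electrons, was at 0.83, 0.58 and 0.46 in Max Dep hearts and 0.40, -0.01 and 1.51 in Min Dep hearts, against -1.50, -0.98 and -1.13 in sham hearts. Every septic array was above every sham array, by 1.83 ± 0.35 units on average (SE, adjusted p = 0.0725). Ndufs1, the largest subunit and a carrier of iron-sulphur clusters, was at -0.96, -0.98 and -0.68 in Max Dep hearts and -1.34, -0.24 and 0.54 in Min Dep hearts, against 1.09, 1.25 and 1.46 in sham hearts. Here every septic array was below every sham array, and the difference was -1.88 ± 0.40 (adjusted p = 0.0859). Ndufv2, another iron-sulphur subunit of the N module, averaged -0.01 ± 0.37 in Max Dep and -0.98 ± 0.58 in Min Dep hearts, against 1.07 ± 0.52 in sham hearts (SD, n = 3 each). Its groups also did not overlap, and the difference was -1.57 ± 0.35 (adjusted p = 0.0962).

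In the Q module, Ndufs3, a core subunit beside the ubiquinone site, was at -0.02, -0.01 and -0.54 in Max Dep hearts and -1.40, -1.29 and -0.53 in Min Dep hearts, against 0.79, 1.43 and 1.75 in sham hearts. All septic arrays were below 0 and all sham arrays above it, with a difference of -1.95 ± 0.31 (adjusted p = 0.0543). Ndufs8, which carries iron-sulphur clusters of this module, had a mean difference over its 6 probe sets, each of them negative, of -1.49 ± 0.34 (adjusted p = 0.0983), again without overlap. Ndufs7, the subunit with the last cluster before ubiquinone, had a difference of 0.56 ± 0.50 (adjusted p = 0.62) and overlapping groups. Its 2 probe sets disagreed, at 1.32 and -0.21. Of the 6 core subunits measured, 2 differences were positive and 4 negative. The 4 negative ones lay below sham without overlap, against 6.11% of all genes. Ndufv1, 1 of the positive ones, lay above sham without overlap, against 5.89% of all genes.

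Among accessory subunits the highest differences belonged to Ndufa13, Ndufa1 and Ndufa2. Ndufa13, a membrane arm subunit also known as GRIM-19 and studied in cell death, was at 1.21, 0.91 and 0.88 in Max Dep hearts and -0.01, 0.32 and 0.88 in Min Dep hearts, against -1.57, -0.70 and -1.69 in sham hearts. No sham array reached a septic one, and the difference, 2.02 ± 0.30, had the lowest unadjusted p of the 39 genes (0.000494, adjusted p = 0.0543). Ndufa1, a small membrane arm subunit needed for assembly, was at 1.28, 1.59 and 0.01 in Max Dep hearts and -0.38, -0.46 and 1.29 in Min Dep hearts, against -0.21, -1.45 and -1.30 in sham hearts. Sham replicate 1 lay above 2 Min Dep arrays, and the difference of 1.54 ± 0.60 had an adjusted p of 0.25. Ndufa2, an accessory subunit of the N module, was at 1.73, 1.59 and 0.29 in Max Dep hearts and -1.06, -0.16 and 0.92 in Min Dep hearts, against -1.15, -0.40 and -1.26 in sham hearts. All Max Dep arrays were above sham, Min Dep replicate 1 was within the sham range, and the difference was 1.49 ± 0.55 (adjusted p = 0.234). Ndufb9, a membrane arm subunit, had a smaller difference of 0.95 ± 0.29 (adjusted p = 0.167) with no overlap.

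Ndufs4, a matrix arm subunit whose loss in mice causes a fatal encephalopathy, was at 0.13, 0.50 and 0.62 in Max Dep hearts and -0.85, -0.10 and -1.82 in Min Dep hearts, against 0.59, 0.03 and 1.00 in sham hearts. Max Dep and sham overlapped and all Min Dep arrays were lower, for a difference of -0.79 ± 0.42 (adjusted p = 0.379). These are means of 3 probe sets that disagreed, at -1.90, -0.57 and 0.10. In the probe set at -1.90, all Max Dep arrays were also below sham. Ndufab1, the mitochondrial acyl carrier protein, which is also part of complex I, had a small mean difference of -0.43 ± 0.20 (adjusted p = 0.318) because its 3 probe sets disagreed, at -1.70, -1.37 and 1.77. Ndufa4, the complex IV subunit, was at 1.38, -0.14 and -0.88 in Max Dep hearts and -1.97, -0.37 and 1.02 in Min Dep hearts, against 0.57, -0.17 and 1.02 in sham hearts. Its groups overlapped widely and the difference was -0.63 ± 0.81 (adjusted p = 0.742). The 18 accessory subunits of the membrane arm had 12 negative and 6 positive differences with a median of -0.94, and the 8 of the matrix arm had 3 negative and 5 positive ones with a median of 0.10.

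**Figure D2:**
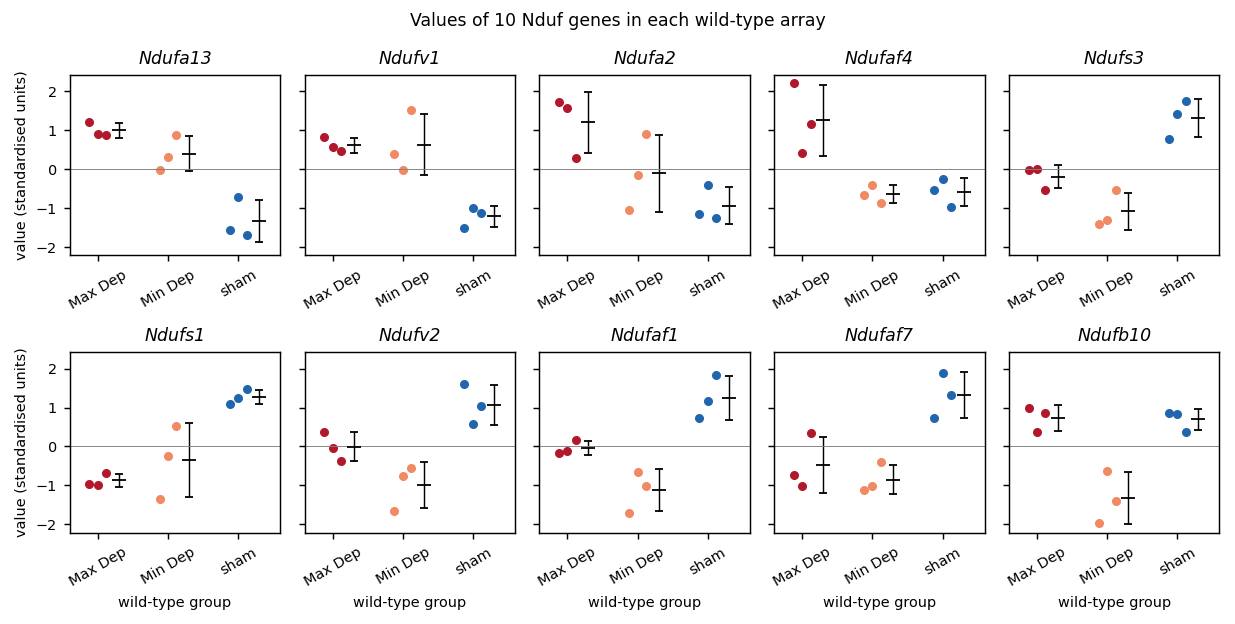
Values of 10 Nduf genes in each wild-type array, in standardised units, by group (Max Dep, Min Dep, sham). Points are arrays and bars give the mean and SD of 3. Ndufa13 and Ndufv1 lie higher in both septic groups than in sham, Ndufs3, Ndufs1, Ndufv2, Ndufaf1 and Ndufaf7 lie lower in both, Ndufa2 and Ndufaf4 lie above sham in Max Dep hearts without overlap, and Ndufb10 is low in Min Dep hearts.

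Of the 5 assembly factors, 4 had a negative and 1 a positive difference, and none passed the adjusted threshold. Ndufaf1, which helps to build the membrane arm, was at -0.17, -0.12 and 0.16 in Max Dep hearts and -1.71, -0.66 and -1.01 in Min Dep hearts, against 0.73, 1.16 and 1.85 in sham hearts. The 3 groups did not overlap, and the difference of CLP from sham was -1.83 ± 0.33 (adjusted p = 0.0644). Ndufaf7, a methyltransferase of complex I assembly, was at -0.74, -1.02 and 0.35 in Max Dep hearts and -1.12, -1.01 and -0.41 in Min Dep hearts, against 0.73, 1.89 and 1.33 in sham hearts. No septic array reached sham, and its difference of -1.98 ± 0.41 (adjusted p = 0.0813) was the most negative of the 39. Ndufaf5, a hydroxylase that modifies Ndufs7, and Ndufaf3, which acts early on the Q module, had differences of -1.52 ± 0.61 and -1.21 ± 0.73 with overlapping groups (adjusted p = 0.262 and 0.451). Ndufaf4, the partner of Ndufaf3 in early assembly, was the exception in sign at 0.90 ± 0.41 (adjusted p = 0.316), with overlap.

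Assembly factors outside the Nduf naming were read from a list of 11, of which 8 were measured. Their differences had a median of -0.76, 3 positive and 5 negative, with 0 passing (3 at an unadjusted p under 0.05, all lower, against 18.6% of all genes). The lowest was Tmem70, which takes part in assembly of ATP synthase and complex I, at -1.90 ± 0.42 (adjusted p = 0.0962), and the highest was Ecsit, a membrane arm assembly factor, at 1.28 ± 0.73 (adjusted p = 0.416). Of the subunits that mitochondrial DNA encodes, ND5 alone was measured, with a difference of -0.14 ± 0.45 (adjusted p = 0.905).

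Whether the members called changed with the way probe sets were read was looked at in the same arrays. Tested one probe set at a time, 5 members had a probe set past the adjusted threshold in wild-type CLP, through 5 of their 74 probe sets, against 2.52% of all 20380 probe sets. Ndufa13 at 2.02 (adjusted p = 0.04) and Ndufv1 at 2.01 (0.0414) were higher, and Ndufs3 at -1.95 (0.0416), Ndufb6 at -2.02 (0.0353) and Ndufv2 at -1.98 (0.0464) were lower. All 3 probe sets of Ndufv1 were positive and all 3 of Ndufv2 negative. Both of Ndufb6, a membrane arm subunit, were negative, with the other at -0.83. Of the 20 members with several probe sets, 13 had one sign over all of them. By name, 20 of the 74 probe sets carry the letter a before their ending, 6 carry s, 14 x and 34 none. Lettered probe sets lay above plain ones in some members, such as Ndufb11 (1.51 and 1.34 against -0.19) and Ndufs7 (1.32 against -0.21). They lay below in others, such as Ndufab1 (-1.70 against -1.37 and 1.77). The positive values of Ndufa13, Ndufa1 and Ndufa2 rest on 1 lettered probe set each. Whether sign goes with probe set type was not tested. With the linear step per array undone, the gene means of Ndufa13, Ndufs3 and Ndufv1 passed (adjusted p = 0.0305, 0.0428 and 0.0458), 3 of 39 members, against 1.44% of all genes.

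Each septic group was next set against the same 3 sham arrays, so these comparisons share their controls. In Max Dep hearts 23 differences were negative and 16 positive, with a median of -0.23, against -0.09 over all genes. That median was -0.43 without Max Dep replicate 1, -0.38 without either sham replicate 1 or sham replicate 2, -0.12 without sham replicate 3 and -0.07 over single probe sets. None passed, where 0.452% of all genes did. At an unadjusted p under 0.05, 7 were higher and 7 lower, against 16.7% of all genes. Max Dep and sham did not overlap for 9 higher members (13.8% of all genes) and 8 lower ones (12.7%). In Min Dep hearts 30 differences were negative and 9 positive, with a median of -1.23, against 0.12 over all genes. None passed here either, where 0.0565% of all genes did, and 3 were higher and 13 lower at an unadjusted p under 0.05, against 16.4%. Min Dep arrays lay below all sham arrays for 18 members, against 12.4% of all genes, and above them for 3, against 10.9%. Without Min Dep replicate 1 the median was -0.73.

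**Figure D3:**
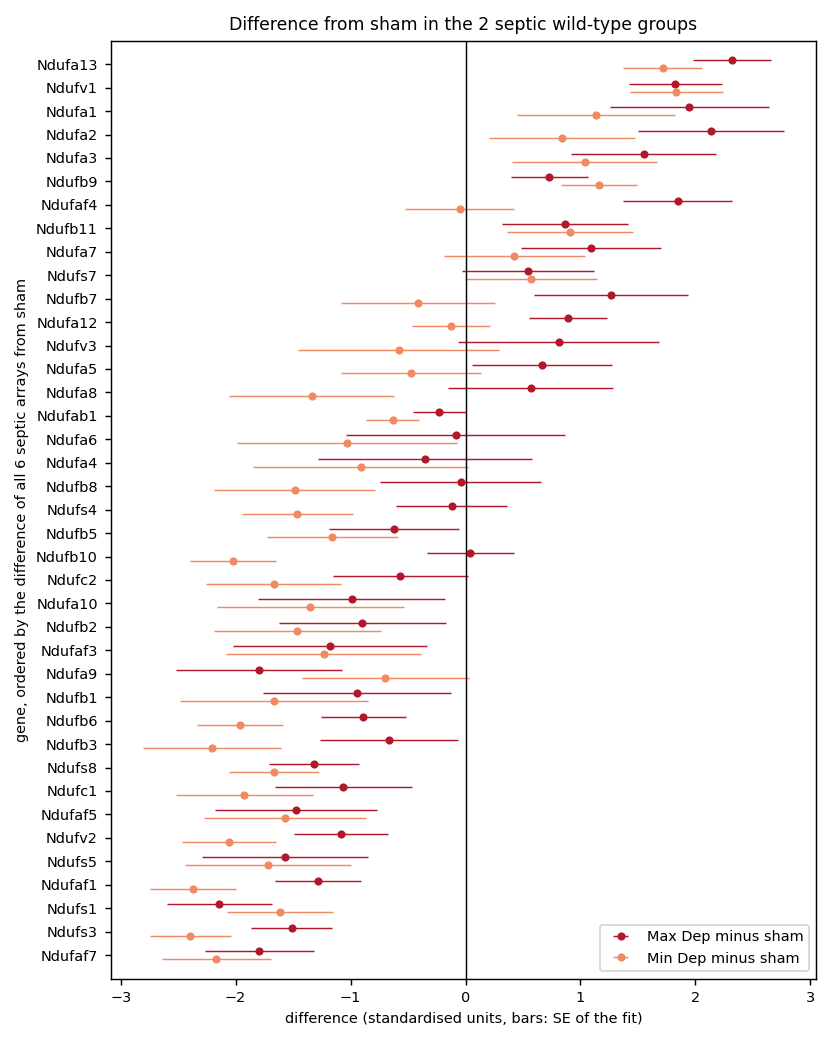
Difference from sham of Max Dep and of Min Dep wild-type hearts for the 39 Nduf genes, in standardised units, with the SE of the fit as bars. Genes are ordered by the mean of both differences, and both share the same sham arrays. Most Min Dep points lie left of 0 and to the left of the Max Dep points, while Ndufa13 and Ndufv1 lie to the right of 0 in both.

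The lowest Max Dep differences were those of Ndufs1 (-2.14 ± 0.46, adjusted p = 0.113), Ndufa9 (-1.80 ± 0.72, 0.293), Ndufaf7 (-1.79 ± 0.47, 0.151) and Ndufs5 (-1.57 ± 0.72, 0.341). Ndufa9, a subunit at the junction of the arms, was at 0.15, -0.99 and -2.01 in Max Dep hearts and -0.88, 0.41 and 0.92 in Min Dep hearts, against 0.32, 0.75 and 1.48 in sham hearts. Ndufs5, a membrane arm subunit facing the intermembrane space, was at 0.87, -0.73 and -1.52 in Max Dep hearts, against 0.17, 1.34 and 1.81 in sham hearts. For Ndufa9 Max Dep arrays were below sham without overlap and Min Dep arrays overlapped sham, while for Ndufs5 Max Dep replicate 1 lay above sham replicate 1. The highest Max Dep differences were those of Ndufa13 (2.32 ± 0.34, adjusted p = 0.0693), Ndufa2 (2.14 ± 0.64, 0.186), Ndufa1 (1.95 ± 0.69, 0.245) and Ndufaf4 (1.85 ± 0.48, 0.147). The only probe set paired with Ndufa13 alone passed when probe sets were tested singly (adjusted p = 0.0485, where 1.08% of all probe sets passed). The gene mean of Ndufa13 passed with the array step undone (0.0421, where 0.379% of all genes passed). A further Ndufa13 entry, shared with Yjefn3, was left out.

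The lowest Min Dep differences were those of Ndufs3 (-2.40 ± 0.35, adjusted p = 0.0714), Ndufaf1 (-2.37 ± 0.38, 0.0755), Ndufb3 (-2.21 ± 0.60, 0.168) and Ndufaf7 (-2.17 ± 0.47, 0.116). Ndufb3, a small membrane arm subunit, was at -0.87, -0.51 and -2.36 in Min Dep hearts, against 0.07, 1.51 and 1.31 in sham hearts, with no overlap. Close behind were Ndufv2 (-2.06), Ndufb10 (-2.02) and Ndufb6 (-1.96), with adjusted p between 0.0883 and 0.0949. The highest were those of Ndufv1 (1.83 ± 0.40, adjusted p = 0.117), Ndufa13 (1.72 ± 0.34, 0.0961), Ndufb9 (1.16 ± 0.33, 0.181) and Ndufa1 (1.13 ± 0.69, 0.466). Ndufb9 was at 0.30, 0.17 and 1.15 in Min Dep hearts, against -0.85, -0.43 and -0.58 in sham hearts, again with no overlap.

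By group means, 21 of the 39 members stood in the order sham, Max Dep, Min Dep from high to low, which is 53.8%, against 17.1% of all genes. Among them were Ndufs3, Ndufs8, Ndufv2, 4 of the 5 assembly factors and most membrane arm subunits. In 7 members, Ndufaf4, Ndufb10, Ndufa8, Ndufb7, Ndufa12, Ndufa5 and Ndufv3, Max Dep was highest and Min Dep lowest. Both septic groups were above sham in 9, with Max Dep highest for Ndufa1, Ndufa13, Ndufa2, Ndufa3 and Ndufa7 and Min Dep highest for Ndufb11, Ndufb9, Ndufs7 and Ndufv1. In Ndufs1 and Ndufa9 alone Max Dep was lowest and sham highest. These orders describe group means, and neighbouring means often differed by less than the spread between arrays.

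Setting Max Dep against Min Dep hearts, both septic, asked whether complex I genes differed between the labelled groups. Of the 39 members 33 were higher in Max Dep hearts and 6 lower, with a median difference of 0.72, against -0.08 over all genes. No gene of the 12393 passed the adjusted threshold (0% called), members included. At an unadjusted p under 0.05, 10 members were higher and 0 lower, against 9.81% of all genes. The groups did not overlap for 11 members, all higher in Max Dep hearts, against 7.89% of all genes higher and 7.43% lower. Leaving out 1 array at a time put the median between 0.57 and 1.06, and with the array step undone it was 0.46. This comparison uses the same Max Dep and Min Dep arrays as those against sham.

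Ndufb10, a membrane arm subunit with disulphide bonds on the intermembrane space side, was at 1.00, 0.36 and 0.85 in Max Dep hearts, against -1.96, -0.63 and -1.39 in Min Dep hearts. The difference was 2.06 ± 0.38 (adjusted p = 0.302), and the sham arrays, at 0.87, 0.84 and 0.37, lay in the Max Dep range. Ndufa8, of the same side of the membrane, was at 0.70, 0.24 and 1.63 in Max Dep hearts, against -1.61, 0.14 and -1.69 in Min Dep hearts, a difference of 1.91 ± 0.72 (0.485). Its Min Dep replicate 2 came close to the lowest Max Dep array. Ndufaf4 was at 2.22, 0.41 and 1.17 in Max Dep hearts, against -0.65, -0.39 and -0.86 in Min Dep hearts, a difference of 1.90 ± 0.48 (0.392). Its sham arrays, at -0.54, -0.24 and -0.97, lay with the Min Dep ones, so Max Dep stood above both. Ndufb7, a membrane arm subunit, was at 2.34, 0.79 and -0.10 in Max Dep hearts, against -0.71, -0.95 and -0.34 in Min Dep hearts, a difference of 1.68 ± 0.67 (0.503), with Max Dep replicate 1 far above the rest.

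The 6 members lower in Max Dep than in Min Dep hearts were Ndufa9 (-1.10 ± 0.72, adjusted p = 0.622), Ndufs1 (-0.53 ± 0.46, 0.716), Ndufb9 (-0.43 ± 0.33, 0.671), Ndufb11 (-0.04 ± 0.54, 0.981), Ndufs7 (-0.03) and Ndufv1 (-0.01), and all had overlapping groups. Ndufb11, an X-linked membrane arm subunit, was at 0.96, -0.41 and 0.32 in Max Dep hearts, against -0.39, 0.68 and 0.72 in Min Dep hearts, and leaving out single arrays turned its sign. Single arrays also stood out over the whole set. The mean over the 39 members was 0.65, 0.11 and -0.06 in Max Dep hearts and -0.88, -0.34 and -0.27 in Min Dep hearts, against 0.09, 0.40 and 0.47 in sham hearts. Max Dep replicate 1 was the highest of the 9 arrays for 14 members and Min Dep replicate 1 the lowest for 16. By this mean every Min Dep array was below every Max Dep array and every sham array, and Max Dep and sham overlapped.

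A control for RNA quality differed between arrays with overlap of groups, and markers of some other cell types differed between septic and sham hearts. The value at the 5′ end minus that at the 3′ end of control transcripts was -0.81, 0.53 and -1.85 in Max Dep hearts. It was 0.07, -0.08 and -0.56 in Min Dep hearts, against 0.55, 0.39 and 1.76 in sham hearts. Min Dep arrays lay below all sham arrays and within the Max Dep range, and Max Dep replicate 2 lay within the sham range. The control values are differences of standardised values, so they place the arrays relative to each other and do not measure how degraded the RNA was. With this control difference as a covariate, no member passed in any comparison, and none had passed in the main fits without it. Macrophage markers were higher after CLP for 12 of 12 genes, 2 of them past the adjusted threshold, with a median difference of 1.80, and their mean per array was 0.31 to 1.12 in Max Dep and 0.13 to 0.54 in Min Dep hearts, against -1.37 to -0.66 in sham hearts. Fibroblast markers had 11 of 12 negative differences with a median of -1.53. Their mean was -0.39 to 0.28 in Max Dep hearts and -1.61 to 0.22 in Min Dep hearts, against 0.78 to 0.88 in sham hearts. Neutrophil markers had 9 of 11 positive differences with a median of 1.35, endothelial markers 6 of 10 positive with a median of 0.84, and adipocyte markers 7 of 8 negative with a median of -1.64. The part of these markers and of the control difference in the complex I values was not tested.

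The other complexes of the chain were read in the same way. Subunits of complexes II to V, 43 genes, had 26 negative and 17 positive differences after CLP with a median of -0.34, against -0.76 for the 33 subunits of complex I, and none passed. At an unadjusted p under 0.05, 1 was higher and 8 were lower, against 18.6% of all genes. All 4 subunits of complex II, succinate dehydrogenase, had negative differences (median -1.15), from Sdha at -0.84 ± 0.54 (adjusted p = 0.471) to Sdhc at -1.78 ± 0.30 (0.0573). Of the 9 subunits of complex III, 8 were negative (median -0.88), from Uqcrc1 at -1.88 ± 0.47 (0.119) to Uqcr11 at 0.82 ± 0.84 (0.67). Complex IV was even in sign, 7 positive and 8 negative with a median of -0.07, from Cox4i2 at -1.55 ± 0.58 (0.237) to Cox6a2, the heart and skeletal muscle isoform, at 1.66 ± 0.41 (0.118). ATP synthase had 9 positive and 6 negative differences with a median of 0.21, from Atp5g1 at -1.96 ± 0.40 (0.0799) to Atp5j2 at 1.09 ± 0.49 (0.311).

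Against sham, the 33 complex I subunits had a median of -0.09 in Max Dep hearts and -1.16 in Min Dep hearts. For complex II the medians were -1.50 in Max Dep and -1.10 in Min Dep hearts, and for complex III -0.80 and -0.96 in the same order. For complex IV they were 0.05 and 0.06, and for ATP synthase -0.11 and -0.15. For Max Dep minus Min Dep hearts the medians were 0.81 for complex I, -0.32 for complex II, 0.16 for complex III, 0.39 for complex IV and 0.73 for ATP synthase. Differences between the complexes were not tested. The mitochondrially encoded ND5 was at -1.86 ± 0.52 for Max Dep minus Min Dep hearts (adjusted p = 0.426).

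**Figure D4:**
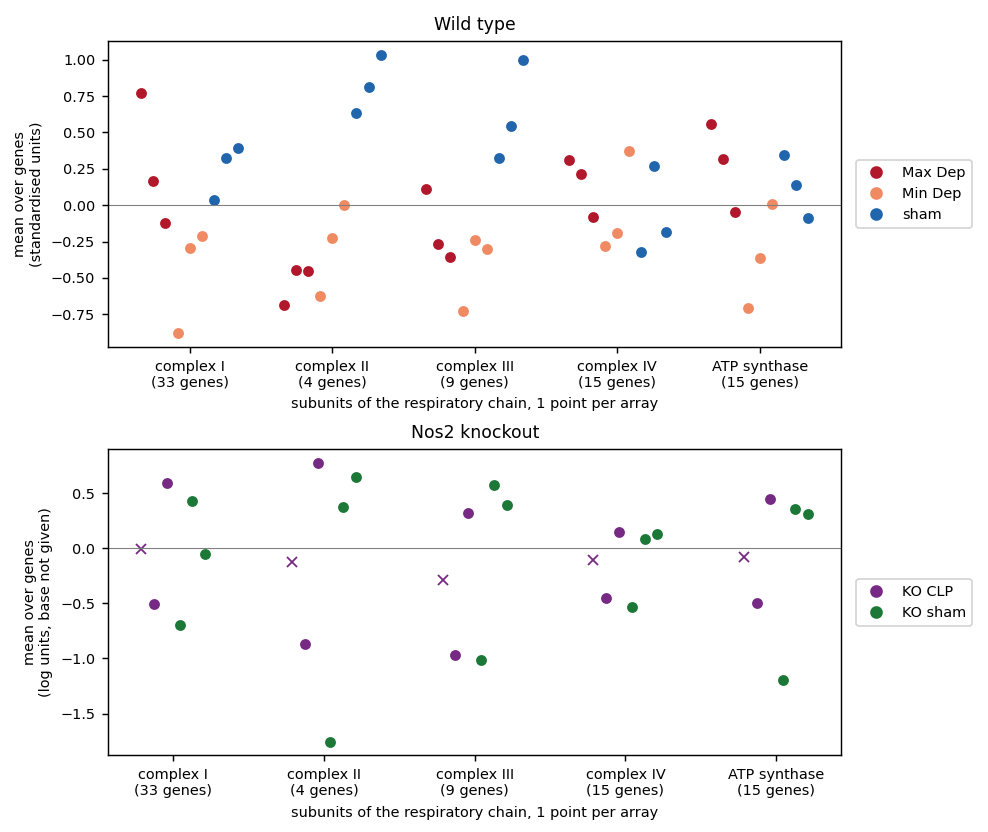
Mean over the subunits of each respiratory complex in every array, wild type above (standardised units) and Nos2 knockout below (log units, base not given). Points are arrays, septic left of sham, and the cross is knockout CLP replicate 1, which was not tested. For complex I the Min Dep points lie lowest in wild type, for complex II both septic groups lie below sham, and in the knockout table the CLP and sham points overlap for every complex.

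The last comparison set CLP against sham in Nos2 knockout hearts, with CLP replicates 2 and 3 against 3 sham arrays. Of the 39 members 23 differences were positive and 16 negative, with a median of 0.13 log units, against 0.03 over all genes. No gene passed (0% called; limma with eBayes), and 2 members were higher and 0 lower at an unadjusted p under 0.05, against 11.9% of all genes. CLP arrays lay above all sham arrays for 2 members, Ndufaf4 and Ndufa13, against 15% of all genes, and below them for 1, Ndufb11, against 14%. The median turned sign with 1 array: it was -0.31 without CLP replicate 3 and -0.21 without sham replicate 1. It was 0.75 without CLP replicate 2, 0.37 and 0.22 without sham replicates 2 and 3, and 0.63 with the control difference as covariate. The mean over the 39 members was -0.43 and 0.70 in the CLP arrays tested, and 0.07 in CLP replicate 1, against -0.73, 0.42 and -0.03 in sham arrays. CLP replicate 3 was the highest of the 6 arrays for 20 members and sham replicate 1 the lowest for 18. The groups' means of these array means, 0.14 ± 0.80 after CLP (SD, n = 2) and -0.11 ± 0.58 after sham surgery (SD, n = 3), lay closer together than either spread.

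Ndufaf4 was at 1.84 and 2.24 log units in knockout CLP hearts, with 1.36 in CLP replicate 1, against -0.82, -0.86 and -0.61 in knockout sham hearts. Its CLP arrays were above sham without overlap, by 2.80 ± 0.41 (adjusted p = 0.0873), and both of its probe sets were positive, at 3.48 and 2.12. With CLP replicate 1 kept, the difference of 2.58 had an adjusted p of 0.0266, where 2.38% of all genes passed, but that array may not be a separate sample. Ndufa13 was at 0.76 and 0.40 in knockout CLP hearts, against 0.02, -1.09 and -0.88 in knockout sham hearts, a difference of 1.23 ± 0.50 (0.41), and its groups did not overlap. Ndufb7, at 0.26 and 1.46 in CLP hearts, against 0.55, 0.08 and -3.46 in sham hearts, had a difference of 1.80 ± 1.22 (0.658) that rested on sham replicate 3. Ndufa7, a matrix arm subunit, was at 0.22 and 1.22 in CLP hearts, against -1.86, 0.66 and -0.43 in sham hearts, with overlap (1.27 ± 0.79, 0.624).

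The lowest knockout differences belonged to Ndufv2, Ndufs7, Ndufa9 and Ndufs4. Ndufv2 was at -2.31 and -0.36 in knockout CLP hearts, against -0.44, 0.04 and 0.97 in knockout sham hearts, a difference of -1.52 ± 0.73 (adjusted p = 0.491), with CLP replicate 3 inside the sham range. Ndufs7 was at -1.18 and 0.16 in CLP hearts, against -0.95, 1.03 and 0.39 in sham hearts (-0.67 ± 0.73, 0.81). Ndufa9 was at -1.46 and 0.98 in CLP hearts, against -1.22, 1.00 and 0.99 in sham hearts (-0.50 ± 0.98, 0.907). Ndufs4 was at -1.11 and 0.34 in CLP hearts, against -0.78, 0.87 and 0.19 in sham hearts (-0.48 ± 0.68, 0.863). In all 4 the groups overlapped. The core subunits Ndufs3 (0.17 ± 1.06), Ndufs1 (-0.11 ± 1.19) and Ndufv1 (-0.36 ± 0.62) had knockout differences smaller than their SE, with adjusted p between 0.888 and 0.985 and overlapping groups. Ndufab1 (-0.09 ± 0.57), Ndufaf1 (0.54 ± 1.13) and Ndufa4 (0.59 ± 0.95) overlapped as well.

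**Figure D5:**
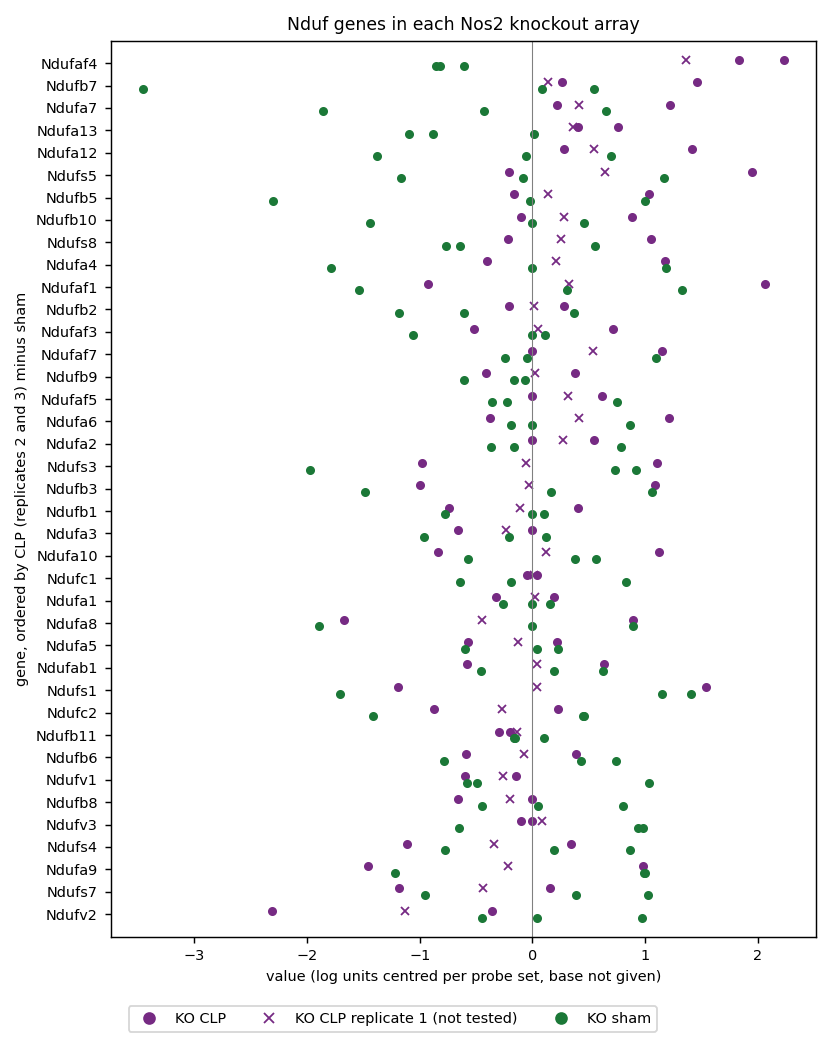
Values of the 39 Nduf genes in each Nos2 knockout array, in log units centred per probe set (base not given), ordered by the difference of CLP replicates 2 and 3 from sham. Crosses are CLP replicate 1, which was not tested. Ndufaf4, at the top, has its CLP points at 1.84 and 2.24 and its sham points between -0.86 and -0.61, and most other genes overlap.

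The assembly factors other than Ndufaf4 had knockout differences smaller than their SE, at 0.54 ± 1.13 for Ndufaf1, 0.41 ± 0.60 for Ndufaf3, 0.26 ± 0.52 for Ndufaf5 and 0.30 ± 0.61 for Ndufaf7, and each of these changed sign under at least 1 alternative. The 3 N module core subunits had negative differences, those of Ndufs1 and Ndufv1 smaller than their SE. Complexes II to V had 22 positive and 21 negative differences with a median of 0.02, and none passed (0 higher and 1 lower at an unadjusted p under 0.05, against 11.9% of all genes). The 8 other assembly factors had a median of 0.57, from Foxred1 at -1.83 ± 0.68 (adjusted p = 0.357) to Timmdc1 at 1.60 ± 0.54 (0.31). Macrophage markers had 11 of 12 positive differences with a median of 3.03, neutrophil markers 10 of 11 with 1.60. Negative were 9 of 10 endothelial markers with a median of -3.21 and 9 of 12 fibroblast markers with -1.20. Cardiomyocyte markers had 7 of 12 negative differences with a median of -0.30, the lowest that of Actc1, cardiac actin, at -3.59 ± 1.28 (adjusted p = 0.341). The CLP arrays lay below all sham arrays for 4 of the 12, against 14% of all genes. Their mean was -1.28 in CLP replicate 2 and 0.59 in CLP replicate 3, against 0.14, 0.47 and 0.81 in sham arrays, and the mean of the 39 members was likewise lower in CLP replicate 2 than in CLP replicate 3. The control difference, here of values centred per probe set, was -2.06 and -0.78 in the CLP arrays tested, against -1.97, 0.21 and 0.98 in sham arrays. The part of these in the knockout values was not tested.

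Side by side, 8 members had a positive CLP difference in both genotypes and 10 a negative one in both. In 15 the wild-type difference was negative and the knockout one positive, and in 6 the reverse. The same counts over all genes were not made, so these have no background. The knockout sign held under all alternatives run on gene means for only 12 of the 39 members. Ndufa13 was positive in both, at 2.02 ± 0.30 standardised units in wild type and 1.23 ± 0.50 log units in knockout hearts. Ndufv2 was negative in both, at -1.57 ± 0.35 standardised units in wild type and -1.52 ± 0.73 log units in knockout hearts. The units differ, so sizes cannot be compared, and the difference between genotypes was not tested.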

How the data were processed

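Total RNA of whole mouse hearts was measured on 15 oligonucleotide arrays. The authors deposited 2 value tables of 22690 probe sets, both read here as a score because no scale is stated: wild-type values standardised per probe set, and knockout values that behave as log differences from -7.78 to 8.18. Normalisation and its software: not given in the sources used here. No intensities were used, so signal over background is unknown, and precision is limited by how many arrays there are. Sample titles gave the groups, and a replicate number is a name only.

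The 64 control probe sets were left out. The platform annotation paired 20380 probe sets with 1 gene, 691 with several and 1555 with none, and only the first were used, averaged per gene. Groups were compared with limma 3.58.1 in R 4.3.3, over all 12393 genes. Wild-type arrays shared 1 fit with unmoderated statistics on 6 residual degrees of freedom, since moderation shrinks standardised values towards a common spread. Knockout arrays were fitted with eBayes, without CLP replicate 1. An adjusted p (Benjamini-Hochberg) under 0.05 counted as passing. The scripts were tested on simulated data.

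All genes whose symbol starts with Nduf could be named. Values in every array are given for the 4 highest and 4 lowest differences of each comparison and for a few preset members, and other lists are shown by their highest and lowest gene. The members and lists were chosen with earlier results of these data known.

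Alternatives were moderation, single probe sets, only the groups compared, the array step undone, centring on array medians, the control difference as covariate, keeping CLP replicate 1, and leaving out each array.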

Additional observations from a re-analysis of the deposited data

Results flagged for a closer look

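In 4 members every septic wild-type array lay on one side of the wild-type sham mean and both knockout CLP arrays tested lay on the other side of the knockout sham mean. Ndufv1 had a CLP difference of 1.83 ± 0.35 standardised units in wild type and -0.36 ± 0.62 log units in knockout hearts. Ndufb11 was at 0.887 ± 0.47 in wild type and -0.18 ± 0.40 in knockout hearts. Its 3 probe sets disagreed, at 1.51, -0.19 and 1.34 in wild type and, in the same order, -0.38, 0.42 and -0.57 in knockout hearts. Ndufs8, at -1.49 ± 0.34 in wild type, was at 0.71 ± 0.63 in knockout hearts, and Ndufb5, a membrane arm subunit, was at -0.89 ± 0.49 in wild type and 0.88 ± 0.99 in knockout hearts. The 2 probe sets of Ndufb5 were uneven in wild type, at -0.13 and -1.65. The difference between genotypes was not tested in any of the 4. How many of all genes meet the same rule was not counted, so the 4 cannot be set against a background. The tables have different units and array models, and the knockout side rests on 2 CLP arrays.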

How the results depend on the processing

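No member passed by gene mean in any of the 5 comparisons with eBayes moderation for wild type or unmoderated statistics for knockout, with the groups compared alone, with arrays centred on their median, with the control difference as covariate, or without any 1 array. Calls came from 3 settings. Testing probe sets singly called 5 members in wild-type CLP and 1 in Max Dep against sham. Undoing the array step called 3 and 1 in the same comparisons. Keeping knockout CLP replicate 1 called 1. With 1 array left out at a time, the median difference of the members ran from -0.998 to -0.63 for wild-type CLP, -0.43 to -0.12 for Max Dep against sham, -1.44 to -0.73 for Min Dep against sham, 0.57 to 1.06 for Max Dep against Min Dep, and -0.31 to 0.75 for knockout CLP. The sign was the same under all alternatives run on gene means for 36, 32, 34, 27 and 12 of the 39 members in the same order.

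Counts over all 12393 genes moved with the settings as well. In wild-type CLP the 89 genes became 0 with eBayes, 1 with the covariate, 179 with the array step undone and 513 probe sets when tested singly, and between 0 and 186 without 1 array. They were 0 without sham replicate 1, sham replicate 2, Max Dep replicate 1 or Min Dep replicate 1, 1 without Min Dep replicate 3, 2 without sham replicate 3, 4 and 12 without Max Dep replicates 2 and 3, and 186 without Min Dep replicate 2. The 56 genes of Max Dep against sham became 0 with eBayes or the covariate, 7 with those groups alone, 220 probe sets singly, and 0 to 26 without 1 array (26 without Min Dep replicate 2, 10 without Min Dep replicate 3, 6 without sham replicate 3, 3 without Max Dep replicate 2, 0 without each other array). The 7 of Min Dep against sham became 0 with eBayes, 2 with the covariate, 1 with those groups alone, 27 with the step undone, 112 probe sets singly, and 0 to 68 without 1 array (68 without Min Dep replicate 2, 3 without sham replicate 3, 2 and 1 without Max Dep replicates 1 and 2, 0 without Min Dep replicate 1 or 3 or sham replicate 1 or 2). For Max Dep against Min Dep the count of 0 became 2 with the step undone and 1 without Max Dep replicate 1, and for knockout CLP it became 295 with CLP replicate 1 kept, an array that may not be a separate sample. The cause of these shifts was not tested. No paired analysis was possible because array codes in the labels are all different and a replicate number is a name only.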
